A study of Mus musculus with 6 samples.

Results

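The genes described here are 9 structural genes of the epidermal differentiation complex, a cluster on mouse chromosome 3: loricrin (*Lor*), involucrin (*Ivl*), the cysteine-rich gene *Crct1*, and the fused S100 genes cornulin (*Crnn*), repetin (*Rptn*), trichohyalin (*Tchh*), filaggrin (*Flg*), filaggrin-2 (*Flg2*) and hornerin (*Hrnr*). They were chosen by gene name among the non-control probes of the arrays. All 9 were present, of 34298 gene names, with 13 probes of 55681 tested. *Flg* had 3 probes, *Ivl* and *Crct1* had 2 each, and the other 6 genes had 1, every probe printed as a single spot.

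Expression was measured on 6 single-colour Agilent mouse arrays of 3-dimensional organoids at passage 0. There were 3 arrays of squamous esophageal organoids and 3 of columnar stomach organoids, and the labels number the mice 1, 2 and 4 in both tissues. All were control cultures harvested on day 8, apart from the stomach organoids of mouse 4, harvested on day 7. Esophageal cultures were started from cells of minced and dissociated tissue and stomach cultures from glands of the corpus. In the study's methods, both media held EGF, noggin, FGF-10 and inhibitors of the TGF-beta receptor and of ROCK. The stomach medium given there also held WNT3A, R-spondin1 and gastrin, and the esophageal medium held forskolin in their place. Those methods do not state the medium of each arrayed culture. With these media, tissue and medium cannot be told apart in any comparison. The study's methods describe wild-type C57BL/6 female mice beside reporter lines and embryos, and do not say which were used for these arrays.

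In stratified epithelia, cells leaving the basal layer replace their plasma membrane with a cornified envelope, a shell of proteins joined by transglutaminases. Involucrin is laid down early in this process and loricrin reinforces the shell late, while the fused S100 proteins, which join a calcium-binding S100 domain to long repeats, tie keratin filaments to the envelope or, as filaggrin, bundle them. Loricrin and the filaggrins are best known from the epidermis, trichohyalin from the hair follicle and the papillae of the tongue, and cornulin from the esophagus.

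In short, *Lor*, *Crct1*, *Tchh* and *Crnn* were higher in esophageal than in stomach organoids. *Rptn* was high in 2 esophageal cultures and low in the third, and did not pass the test. *Ivl* was measured on every array at low and overlapping levels in both tissues. *Flg* was well above background on some arrays only and *Flg2* and *Hrnr* on none, and these 3 genes did not pass the test. Most of the genes that were higher also differed strongly between the 3 esophageal cultures.

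Values are the authors' log2 expression values, so that 1 unit is a doubling, and a difference is esophagus minus stomach. Differences were tested with limma and Benjamini-Hochberg adjustment over all 55681 probes, and a gene was called when at least 1 of its probes had an adjusted p under 0.05. By this rule 4 of the 9 genes were called higher in esophagus and 0 higher in stomach. Of all gene names, 7.88% were called higher in esophagus and 8.33% higher in stomach. The study's methods give a threshold of p under 0.05 with a 1.5-fold change and do not say whether that p was adjusted. With the p read as unadjusted, *Rptn* was added and 5 genes were called, against 12.2% of all names. By probe, 5 of 13 were called higher in esophagus, against 5.94% of all probes. The median difference over the brightest probe of each of the 9 genes was 1.42, against 0.03 over the brightest probe of every gene name.

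A probe was read as measured where the scanning software marked its spot as well above background, which held for 45.5% to 47.3% of non-control spots on the esophageal arrays and 46.7% to 51.1% on the stomach arrays. No spot was saturated. Of the 13 probes, 5 were well above background on all 6 arrays and 3 on none. As a check of the labels, keratin 5 (*Krt5*) of basal squamous cells had log2 values of 17.07, 17.08 and 17.08 in esophagus and 4.85 to 5.39 in stomach, and keratin 8 (*Krt8*) of columnar cells had 5.21 to 5.83 in esophagus and 16.65 to 16.88 in stomach. With 3 arrays against 3, an exact permutation test cannot give a two-sided p under 0.10.

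**Figure D1:**
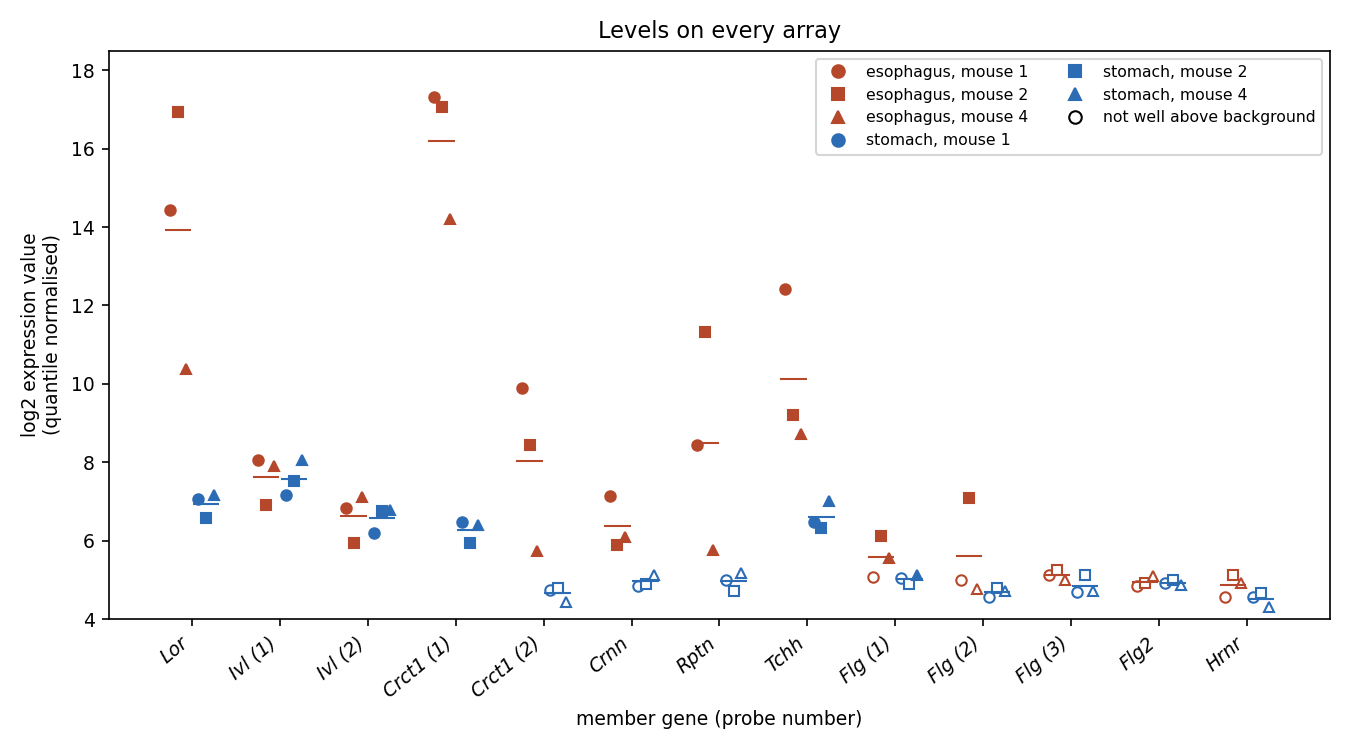
Log2 expression value (vertical axis) of the 13 probes (horizontal axis) on each of the 6 arrays, with marker shape for the mouse, bars for the tissue means and open markers for spots not well above background. The esophageal values of Lor, Crct1, Crnn, Rptn and Tchh all lie above the stomach values, whereas the Ivl values of the tissues overlap.

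The probes are 60 bases long, and their places are given by the files on the mouse build mm9. An annotation of that build was not used here, so exon and untranslated parts are not stated. Shown here are 5 probes, picked by hand, to set both probes of *Ivl*, whose values overlapped between the tissues, beside that of the called gene *Crnn* and 2 of the 3 *Flg* probes. Both *Ivl* probes lie on the minus strand, at chr3:92375367-92375426 and chr3:92375498-92375557. The *Crnn* probe is on the plus strand at chr3:92953334-92953393, and the *Flg* probes are on the plus strand at chr3:93083694-93083753 and chr3:93090187-93090246.
Ivl probe 1: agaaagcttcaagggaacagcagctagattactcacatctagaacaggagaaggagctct
Ivl probe 2: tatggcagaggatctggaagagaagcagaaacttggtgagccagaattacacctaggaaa
Crnn probe: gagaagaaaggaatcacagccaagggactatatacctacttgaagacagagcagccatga
Flg probe 1: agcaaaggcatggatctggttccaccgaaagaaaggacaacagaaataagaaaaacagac
Flg probe 3: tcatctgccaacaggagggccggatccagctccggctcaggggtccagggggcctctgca
Guanine and cytosine made up 45.0% of each *Ivl* probe and of the *Crnn* probe, 41.7% of *Flg* probe 1 and 68.3% of *Flg* probe 3. No other probe on the arrays had the sequence of a probe of these 9 genes. Filaggrin and hornerin are built of repeats, so a probe placed in a repeat may read several of them.

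Loricrin, the glycine-rich main component of the epidermal envelope, had log2 values of 14.44, 16.94 and 10.38 in the esophageal organoids of mice 1, 2 and 4 and of 7.07, 6.58 and 7.16 in the stomach organoids. All 3 esophageal values lay above all 3 stomach values, with a gap of 3.22 between the groups. The difference was 6.98 ± 1.39 (SE, n = 3 and 3), or 126-fold with a 95% interval of 13.4 to 1189 (adjusted p = 0.0152, limma). Within the mice it was 7.37, 10.36 and 3.22. The probe (chr3:91884206-91884265, minus strand) was well above background on every stomach array too, so a low signal was measured there. In bulk cultures such as these, fewer cells of a type and less RNA per cell cannot be told apart. Without the stomach array of mouse 1 the adjusted p rose to 0.0644, and without that of mouse 2 to 0.0716, with differences of 7.05 and 6.80, and it was 0.0551 with a background offset of 50 and 0.104 with trended and robust variances. Without the esophageal array of mouse 2, the highest, the difference was 5.47 (adjusted p = 0.0222), and without that of mouse 4, the lowest, it was 8.75 (adjusted p = 0.000175).

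*Crct1*, which encodes a small cysteine-rich protein of the same locus, had the largest difference of the 9 genes by its first probe. Its first probe (chr3:92818192-92818251) gave 17.33, 17.07 and 14.22 in esophagus and 6.46, 5.94 and 6.41 in stomach. The groups were 7.75 apart at their nearest values, and the difference was 9.93 ± 0.74 (SE, n = 3 and 3; adjusted p = 8.89e-05, limma), a fold change of 978 with a 95% interval of 297 to 3221. The second probe (chr3:92819202-92819261) gave 9.90, 8.44 and 5.72 against 4.75, 4.79 and 4.43, and stayed at background in stomach, with 0 of 3 arrays marked as well above it. Both probes placed the esophageal cultures in the same order, with mouse 4 lowest. By the second probe, *Crct1* was at least 9.27-fold higher in esophagus on the means. For this bound, each stomach array took the higher of its own value and the lowest well-measured signal. The fitted difference was 3.37 with a 95% interval of 1.28 to 5.45 (adjusted p = 0.0499, limma). That call was lost without the esophageal array of mouse 1 (difference 2.43, adjusted p = 0.0715) or mouse 2 (3.16 and 0.144) and without the stomach array of mouse 1 (3.41 and 0.15), mouse 2 (3.43 and 0.147) or mouse 4 (3.25 and 0.106). It was also lost with scanner intensities at an offset of 16 (3.25 and 0.0609) or 50 (2.37 and 0.163) and with trended and robust variances (0.154). The differences without the esophageal array of mouse 1 or 2 and with an offset of 50 are smaller folds than the bound above. The call of the second probe held without the esophageal array of mouse 4 (4.51 and 0.000441) and with 75th percentile scaling (5.82 and 0.0094). The call of the first probe held in all these fits, and the mean of both probes gave a difference of 6.65 (adjusted p = 0.00236, limma). That mean difference, like the difference of the second probe, is smaller than the difference of *Lor*.

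Involucrin, the early scaffold of the envelope, did not follow loricrin. *Ivl* probe 1 gave 8.07, 6.90 and 7.91 in esophagus and 7.17, 7.51 and 8.06 in stomach, and the groups overlapped. Probe 2 gave 6.84, 5.94 and 7.10 against 6.19, 6.75 and 6.78, again overlapping. All 12 values were well above background, though low, with esophageal means of 7.63 and 6.63 against 13.92 for *Lor*. The differences were 0.05 with a 95% interval of -0.76 to 0.85 (adjusted p = 0.96, limma) and 0.06 with an interval of -0.68 to 0.80 (adjusted p = 0.945, limma). In linear terms the intervals run from 0.589-fold to 1.81-fold and from 0.623-fold to 1.74-fold. No test was run of the *Ivl* difference against those of the other genes. Both probes were lowest in mouse 2 among the esophageal cultures, the culture in which *Lor* was highest.

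**Figure D2:**
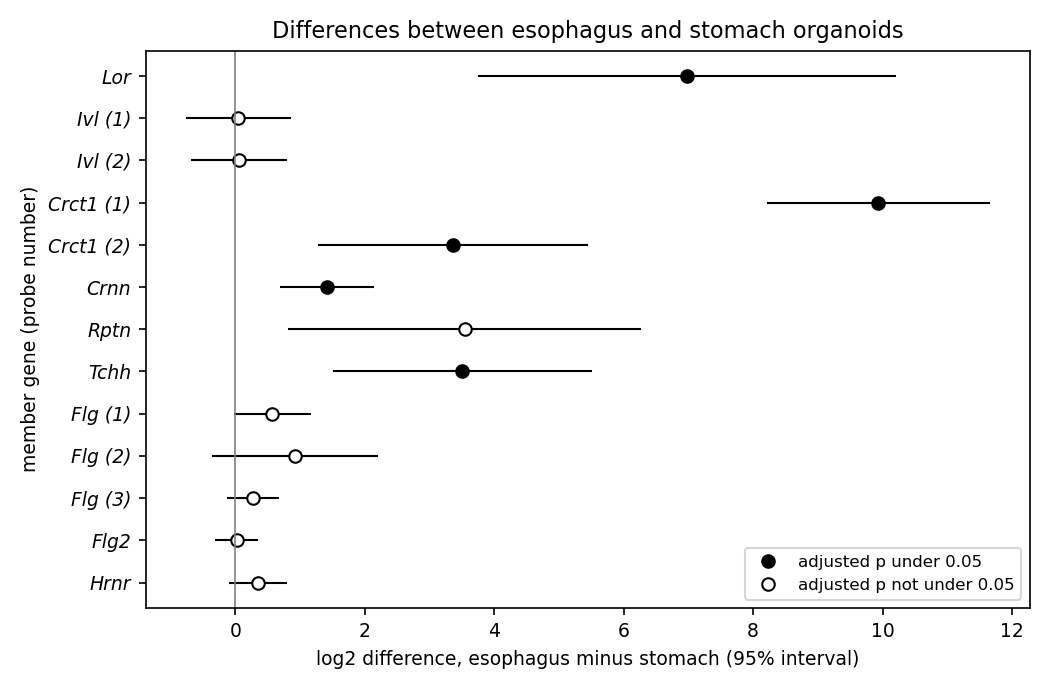
Log2 difference, esophagus minus stomach, with its 95% limma interval (horizontal axis) for the 13 probes (vertical axis), filled where the adjusted p was under 0.05. The intervals of both Ivl probes span 0, and that of the first Crct1 probe runs from 8.21 to 11.65.

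Among the fused S100 genes, 2 of 6 were called, *Tchh* and *Crnn*. Trichohyalin, which hardens the inner root sheath of the hair, gave 12.42, 9.21 and 8.71 in esophagus and 6.48, 6.33 and 7.02 in stomach, well above background on all 6 arrays. The culture of mouse 1 stood 3.20 above that of mouse 2, and the groups did not overlap. The difference was 3.51 ± 0.86 (SE, n = 3 and 3; adjusted p = 0.0363, limma), or 11.4-fold with a 95% interval of 2.85 to 45.5. The call was lost in 4 of the 6 fits that left out an array, with an adjusted p of 0.0534 without the esophageal array of mouse 2 (difference 3.96), 0.13 without the stomach array of mouse 1 (3.44), 0.136 without that of mouse 2 (3.37) and 0.0598 without that of mouse 4 (3.71), and with a background offset of 50 (0.113) or trended and robust variances (0.11). Without the esophageal array of mouse 1, the highest, the difference fell to 2.36 (adjusted p = 0.00146). Keratins of the inner root sheath, *Krt25*, *Krt27*, *Krt28*, *Krt71*, *Krt72* and *Krt73*, gave no call in either direction, and by their brightest probes 4 of these 6 were well above background on no array.

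Cornulin, an esophageal squamous protein, had a low signal. Its probe gave 7.13, 5.89 and 6.10 in esophagus and 4.85, 4.89 and 5.13 in stomach, where no array was well above background. The groups did not overlap, and *Crnn* was at least 2.63-fold higher in esophagus. The fitted difference was 1.42 ± 0.31 (SE, n = 3 and 3; adjusted p = 0.0238, limma). It lost its call without the stomach array of mouse 1 (difference 1.36, adjusted p = 0.102, limma) or of mouse 2 (1.38 and 0.0972). The call was also lost with a background offset of 50 (0.87 and 0.0774) and held without the esophageal array of mouse 1 (1.04 and 0.0106). Each of these differences is a smaller fold than the bound above. With the arrays scaled to their 75th percentile the fitted difference was 3.98.

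Repetin, a fused S100 protein of the granular layer and tongue, varied most among the fused S100 genes. Its probe (chr3:93202664-93202723, plus strand) gave 8.44, 11.32 and 5.75 in esophagus and 4.99, 4.71 and 5.17 in stomach, where 0 of 3 arrays were well above background. The groups did not overlap, though only 0.58 separated the esophageal culture of mouse 4 from the highest stomach value. On the means, *Rptn* was at least 11.02-fold higher in esophagus. The fitted difference of 3.54 had a 95% interval of 0.82 to 6.26 and did not pass after adjustment (adjusted p = 0.104, limma). Without the esophageal array of mouse 4 it was 4.92 and passed (adjusted p = 0.0054), and with 75th percentile scaling it was 5.98 (adjusted p = 0.018). Without that of mouse 2, the highest culture, it fell to 2.13 (adjusted p = 0.133), so the fold above rests largely on that array, and with an offset of 50 it was 2.72 (adjusted p = 0.239).

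The filaggrin family gave little signal. *Flg* probe 1 read 5.08, 6.12 and 5.56 in esophagus and 5.03, 4.89 and 5.13 in stomach, and was well above background on 2 esophageal arrays and 1 stomach array. *Flg* probe 2 (chr3:93097529-93097588) read 4.99, 7.09 and 4.77 against 4.56, 4.79 and 4.72, and only the esophageal array of mouse 2 was well above background. Both probes were thus highest in mouse 2, and their groups overlapped. The differences of 0.57 (adjusted p = 0.231) and 0.93 (adjusted p = 0.379) did not pass in limma, though probe 1 passed with 75th percentile scaling (1.68, adjusted p = 0.0375). *Flg* probe 3 ranged from 4.69 to 5.25, *Flg2* from 4.84 to 5.10 and *Hrnr* from 4.30 to 5.13 over the 6 arrays. None of these last 3 probes was well above background on any array, so no fold is given for them.

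Over the 13 probes, all 3 esophageal values lay above all 3 stomach values for 6, below them for 0, and the groups overlapped for 7. Among 55641 probes read on every array, at background or above it, 15.2% had every esophageal value above every stomach value. The 6 were the probes of *Lor*, *Crct1* (both), *Rptn*, *Tchh* and *Crnn*.

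The esophageal cultures differed widely from each other. *Lor* spanned 6.56 log2 units among them, a 94.6-fold range, *Rptn* spanned 5.57, *Tchh* 3.70 and the first *Crct1* probe 3.11. In stomach, the probes of *Lor*, *Tchh* and *Crct1* spanned 0.58, 0.69 and 0.52, and that of *Rptn* was at background. The SD of *Lor* in esophagus was 3.31, and 0.127% of the 22810 probes well above background on all 3 esophageal arrays had an SD at least as large, where the median SD was 0.29. The corresponding shares were 0.228% for *Rptn* (SD 2.78), 0.636% for *Tchh* (SD 2.01) and 0.982% for the first *Crct1* probe (SD 1.73). *Crnn* (SD 0.67) and *Ivl* (SD 0.63 and 0.61) lay at 10.9%, 12.4% and 13.3%.

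Mouse 4 gave the lowest esophageal value for 5 of the 8 probes that were well above background on all 3 esophageal arrays, namely those of *Lor*, *Crct1*, *Rptn* and *Tchh*. Mouse 2 was lowest for the other 3, those of *Ivl* and *Crnn*. Of all 22810 such probes, 29.0% were lowest in mouse 4 and 34.0% in mouse 2. *Lor* and *Rptn* were highest in mouse 2, whereas *Tchh*, *Crct1* and *Crnn* were highest in mouse 1, so the genes did not share 1 order of the cultures. Of the late cornified envelope and small proline-rich genes of the same locus, 17 and 14 were well above background on all 3 esophageal arrays by their brightest probes, and all 17 and all 14 were lowest in mouse 4. Median log2 values of the late cornified envelope genes were 9.77, 13.66 and 6.41 in mice 1, 2 and 4. Those of the suprabasal esophageal keratins were 16.60, 16.85 and 15.35, again lowest in mouse 4, and those of the basal squamous markers were 15.28, 15.12 and 15.76. The esophageal array of mouse 4 was the sole array on its slide, while the other 5 shared a slide, so this mouse and slide cannot be told apart, and values without this array are also the values within the other slide. Within that slide the difference was 8.75 for *Lor* (adjusted p = 0.000175), 10.93 for the first *Crct1* probe (adjusted p = 6.3e-07), 4.21 for *Tchh* (adjusted p = 0.0176) and 1.55 for *Crnn* (adjusted p = 0.0315), all in limma.

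**Figure D3:**
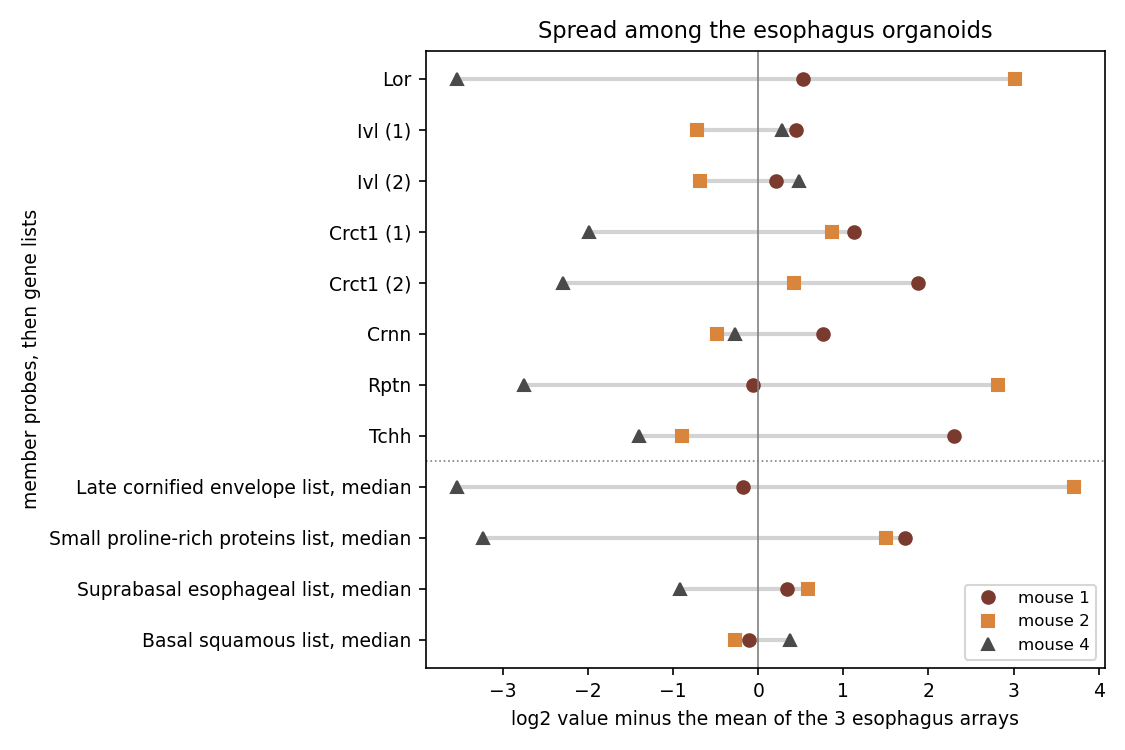
Log2 value of each esophageal array minus the mean of the 3 (horizontal axis), with marker shape for the mouse, for the member probes well above background on all 3 arrays and, below the dotted line, for the medians of 4 gene lists. Lor, Rptn and the late cornified envelope genes spread furthest, and the basal squamous markers least.

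Suprabasal keratins of the esophagus were high in the esophageal cultures, and those of the epidermis were high only in part. *Krt13*, a keratin of suprabasal esophageal cells, was called higher in esophagus by its brighter probe (16.60, 16.85 and 16.41 against 5.38, 5.12 and 6.36; adjusted p = 5.43e-07, limma). All 5 keratins listed as suprabasal esophageal, *Krt4*, *Krt13*, *Krt6a*, *Krt6b* and *Krt16*, were called higher in esophagus. *Krt10*, a keratin of suprabasal epidermis, was 1.93 higher by 1 probe (adjusted p = 0.000306, limma) and 3.63 higher by the brighter one (11.58, 11.54 and 10.72 against 7.11, 7.44 and 8.39; adjusted p = 0.000478, limma). Its epidermal partner *Krt1* was at background in esophagus (5.29, 4.72 and 4.80, with 0 of 3 arrays well above it) and was called higher in stomach (5.64, 5.67 and 6.26, with 3 of 3 well above it; adjusted p = 0.0421, limma), and *Krt2* and *Krt77* were well above background on no array. By brightest probes, 0 of 6 fibroblast, 0 of 5 muscle, 3 of 5 immune and 2 of 4 endothelial markers were well above background on all 3 esophageal arrays. The immune markers above it were *Cd68* (14.78, 12.95 and 11.80), *Cd3e* (7.39, 7.23 and 7.56) and *Itgam* (11.18, 10.47 and 10.51), and the endothelial ones *Pecam1* (5.80, 5.98 and 5.99) and *Kdr* (9.10, 9.12 and 8.44). The probes of *Itgam* and *Kdr* disagreed, since 2 further *Itgam* probes and 1 further *Kdr* probe were at background on every array. The pan-leukocyte gene *Ptprc*, *Cd52*, and *Cdh5* and *Emcn* of endothelium were above it on no array. Summed levels of the immune markers, on the log2 scale, were 14.90, 13.22 and 12.36 in esophagus and 13.55 to 14.07 in stomach, and the part of these cells in the results was not tested. Summed levels of the columnar gastric markers, on the log2 scale, were 10.74 to 11.80 in esophagus and 19.60 to 19.76 in stomach, and all 10 were higher in stomach.

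The enzymes and scaffold proteins that join the envelope were mostly higher in esophagus. Of 9 crosslinking and scaffold genes, 7 were called higher in esophagus and 0 higher in stomach. Transglutaminase 1 (*Tgm1*), which joins involucrin and loricrin to the envelope, was highest among them in difference, at 7.64 (14.81, 13.55 and 12.36 against 5.64, 5.22 and 6.95; adjusted p = 0.00018, limma). Desmoplakin (*Dsp*), which anchors keratin to desmosomes, was the smallest called. Its difference was 2.92 by the brighter probe (adjusted p = 0.000114, limma) and 2.06 by the other (adjusted p = 0.00135, limma). The probes of transglutaminase 3 (*Tgm3*), which crosslinks loricrin and trichohyalin, disagreed. The probe dimmer in stomach gave 10.96, 12.02 and 8.43 in esophagus and was well above background on 0 of 3 stomach arrays (at least 48.6-fold, adjusted p = 0.0025, limma), and the other gave 9.16 to 9.28 against 8.93 to 10.07 (difference -0.09, adjusted p = 0.901, limma).

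Of 13 genes that process filaggrin or control its processing, 6 were called higher in esophagus and 0 higher in stomach. By brightest probes, 11 of the 13 were well above background on all 3 esophageal arrays and 6 on all 3 stomach arrays. Caspase-14 (*Casp14*), which helps break filaggrin down, gave 8.19, 9.91 and 9.64 in esophagus and 5.88, 5.84 and 5.44 in stomach, a difference of 3.53 (adjusted p = 0.00118, limma). The largest was the protease inhibitor *Spink5*, at background in stomach and at least 371-fold higher in esophagus (adjusted p = 3.31e-05, limma), and the smallest called was bleomycin hydrolase (*Blmh*), at 2.51 (adjusted p = 0.000134, limma).

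Other genes of the complex were called in part. Of 16 small proline-rich genes, which encode cross-bridging envelope proteins, 9 were higher in esophagus and 2 higher in stomach, and the largest difference was that of *Sprr2f*, at 10.84 (adjusted p = 0.000201, limma). Those higher in stomach were *Sprr2a1* (4.76, 4.65 and 4.36 in esophagus, at background, against 6.37, 6.04 and 6.21; adjusted p = 0.000596, limma) and *Sprr2a3*, by 1 of its 2 probes (-1.72, adjusted p = 0.0422, limma). Of 20 late cornified envelope genes 8 were higher in esophagus and 0 in stomach, from *Lce3b* (16.70, 17.35 and 10.46, at least 980-fold; adjusted p = 0.00518, limma) to *Lce1a1* (10.87, 14.41 and 6.76, at least 58.8-fold; adjusted p = 0.0481, limma), both at background in stomach. By this count, 18 were higher without the esophageal array of mouse 4, against 4 without the stomach array of mouse 1 or 2. The bounds for *Lce3b* and *Lce1a1* are taken on means of esophageal cultures that differed widely, so they depend on single arrays. Close relatives within these families, such as the *Sprr2* genes, may share signal on a probe. Of 10 further genes of the locus, *Prr9* (4.24, adjusted p = 0.0161) and *S100a10* (1.28, adjusted p = 0.0354) were called in limma, both higher in esophagus.

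**Figure D4:**
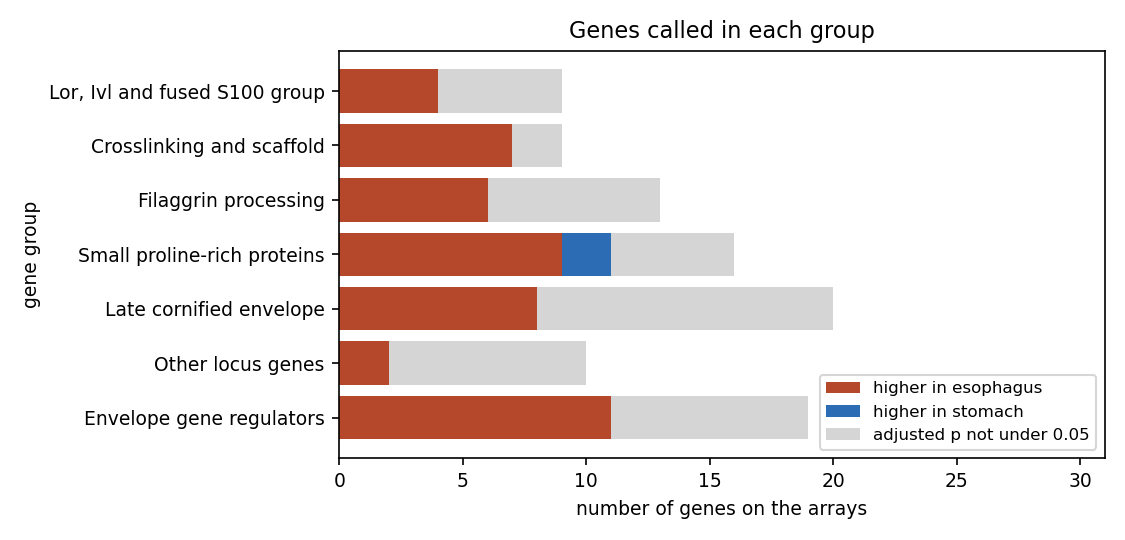
Number of genes on the arrays (horizontal axis) in each group (vertical axis), divided into those higher in esophagus, those higher in stomach and those whose adjusted p was not under 0.05. The group of Lor, Ivl and the fused S100 genes has 4 of 9 called, and Trp63, with probes called both ways, is drawn as higher in esophagus.

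The interval between the *Lor* and *Tchh* probes, 1.37 Mb long, was drawn after the values were seen and held 103 probes. It held 49 other gene names, of which 18 were called higher in esophagus, 2 higher in stomach and 29 in neither direction. Of all gene names, 7.88% were called higher in esophagus and 8.33% in stomach. The called names were small proline-rich genes, late cornified envelope genes and *Prr9*, all counted above already. *Ivl* lay 0.49 Mb from the *Lor* probe and the first *Crct1* probe 0.93 Mb from it. The row of *Flg2*, *Flg* and *Hrnr*, at 1.14 to 1.24 Mb, lay between *Crnn* at 1.07 Mb and *Rptn* at 1.32 Mb, so that genes that were not called stood between the called genes *Crnn* and *Tchh*.

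**Figure D5:**
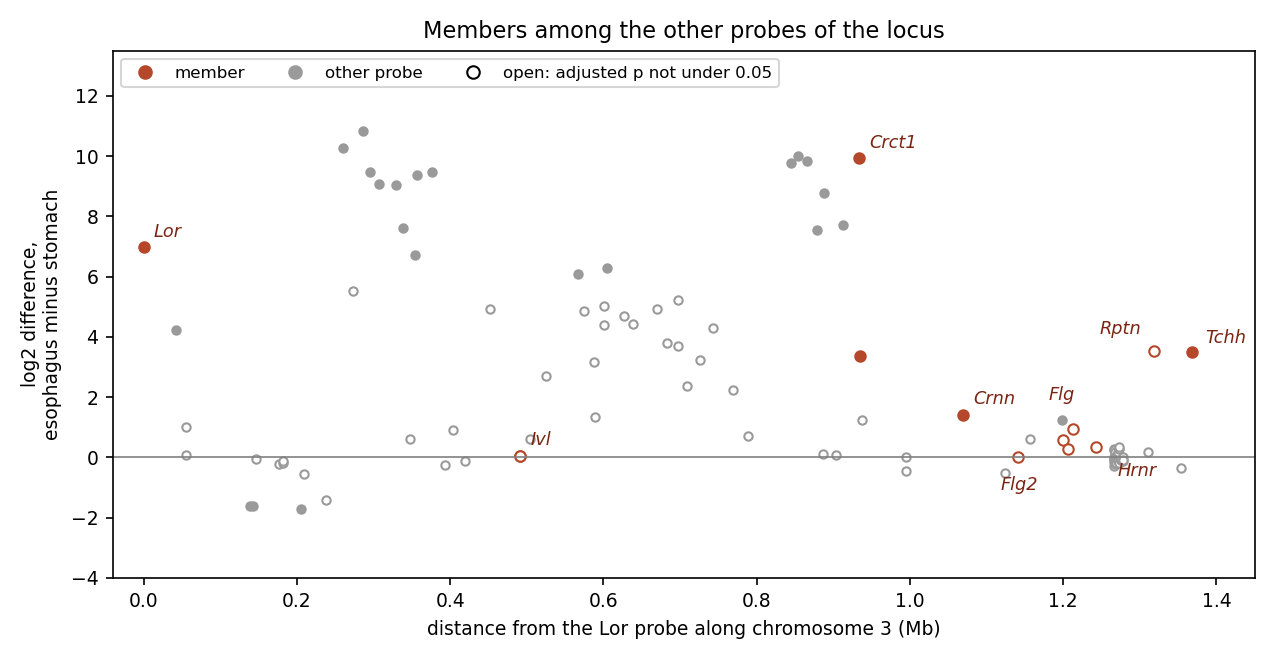
Log2 difference, esophagus minus stomach (vertical axis), against distance in Mb from the Lor probe (horizontal axis) for the 103 probes of the interval, with members in red and open markers where the adjusted p was not under 0.05. Called and uncalled members are interspersed along the interval.

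Of 19 regulators of envelope genes, 11 were called higher in esophagus and 1 higher in stomach. *Trp63*, the squamous lineage factor p63, was counted in both: 3 of its 4 probes were higher in esophagus, each at background in stomach, the brightest of them at least 299-fold (13.46, 12.96 and 12.42 against 4.27, 4.56 and 4.36; adjusted p = 6.99e-07, limma), and 1 gave a difference of -1.22 (adjusted p = 0.0249, limma). The smallest called was *Arnt*, a partner of the aryl hydrocarbon receptor, with 1 of 3 probes higher by 0.97 (adjusted p = 0.0113, limma).

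The bases upstream of the annotated starts of 8 members were read from RefSeq (GRCm38.p6), and *Crct1* had no entry. The 250 bases before each start were searched on both strands for 3 motifs, in which N is any base. These were the AP-1 motif TGANTCA, which reads the same on both strands, the KLF-type motif CNCCC and the TATA motif TATAAA. The AP-1 motif was found in 6 of the 8 windows, against 6.75% of 32851 windows of all genes, and the TATA motif in 6 of 8, against 12.4%. The KLF-type motif, which is short, was found in 7 of 8, against 86.8%. The sequences of *Lor*, *Crnn* and *Rptn*, whose esophageal values all lay above the stomach values, are shown with that of *Ivl*, whose values overlapped, since all 4 hold an AP-1 match. Capitals mark AP-1 and TATA matches on either strand. They lie at chr3:92083143-92083392 (*Lor*, minus strand), chr3:93144539-93144788 (*Crnn*, plus strand), chr3:93393449-93393698 (*Rptn*, plus strand) and chr3:92573791-92573985 (*Ivl*, minus strand). For *Ivl*, the 55 bases nearest the start belong to another annotated transcript and are left out.
Lor: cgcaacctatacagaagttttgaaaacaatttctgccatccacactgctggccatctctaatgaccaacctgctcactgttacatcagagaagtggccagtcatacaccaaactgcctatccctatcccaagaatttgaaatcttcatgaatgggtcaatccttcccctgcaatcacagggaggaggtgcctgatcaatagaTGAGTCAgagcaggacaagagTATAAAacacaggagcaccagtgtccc
Crnn: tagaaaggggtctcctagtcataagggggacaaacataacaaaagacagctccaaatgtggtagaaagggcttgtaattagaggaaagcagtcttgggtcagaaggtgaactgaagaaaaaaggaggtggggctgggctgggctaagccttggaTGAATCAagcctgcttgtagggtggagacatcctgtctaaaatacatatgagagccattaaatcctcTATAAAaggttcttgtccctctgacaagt
Rptn: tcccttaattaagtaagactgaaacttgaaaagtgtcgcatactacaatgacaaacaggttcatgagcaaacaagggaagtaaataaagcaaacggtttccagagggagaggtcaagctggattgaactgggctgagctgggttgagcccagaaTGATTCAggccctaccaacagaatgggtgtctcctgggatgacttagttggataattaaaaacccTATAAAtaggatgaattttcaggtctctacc
Ivl: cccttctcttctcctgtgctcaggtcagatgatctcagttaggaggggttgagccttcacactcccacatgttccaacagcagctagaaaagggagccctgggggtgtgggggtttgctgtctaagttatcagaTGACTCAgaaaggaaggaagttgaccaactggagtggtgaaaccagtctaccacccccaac
Counted from its first base, the AP-1 match starts 48 bases before the start of *Lor*, 96 bases before those of *Crnn* and *Rptn*, and 116 bases before that of *Ivl*. Its middle base is G in *Lor*, A in *Crnn*, T in *Rptn* and C in *Ivl*. The TATA match starts 27 bases before *Lor*, 29 before *Crnn*, 31 before *Rptn* and 29 before *Ivl*, where it falls in the bases left out. The window of *Tchh*, which was called higher in esophagus, held none of the 3 motifs. *Flg* and *Flg2* each held an AP-1 match and *Hrnr* did not. A match is a description of letters in these windows and not of binding.

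For each called gene, the other genes nearest in profile over the 6 arrays were found by the root mean square distance between log2 values centred on each probe's mean. *Lor* was nearest to *Lce1d* (distance 0.518), the interleukin-36 gene listed as *Il1f6* (0.519) and *Lce1a1* (0.578). *Crct1* was nearest to *Sprr1b* (0.384) and *Sprr3* (0.432). *Tchh* was nearest to *Ecm1* (0.381), *Prr9* (0.517) and *Cd274* (0.578). *Crnn*, with its smaller range, was nearest to *Crot* (0.0848), *Reep3* (0.117) and *Cyp27a1* (0.122). Since they were chosen for likeness on these arrays, the order of the cultures in them is part of the choice. *Lce1d*, for example, gave 11.95, 14.25 and 6.82 in esophagus, and *Ecm1* gave 12.50, 9.50 and 8.29.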

How the data were processed

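RNA of 6 organoid cultures was labelled with Cy3 and hybridised to 6 Agilent 8x60K mouse arrays, and the authors read them with Agilent Feature Extraction 11.5.1.1. For each spot, the deposited scanner output gives the mean, local background and processed intensity, with flags and without normalisation between arrays. The deposited table holds the authors' log2 values, background corrected and quantile normalised by them. The offset of their correction is not given in the sources used here. Its empty cells were the spots flagged as outliers.

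Each column was matched to its array by label. Log2 values were averaged over the spots of a probe and fitted with lmFit and eBayes (limma 3.58.1, R 4.3.3) over the 6 arrays without a block. Benjamini-Hochberg adjustment ran over 55681 probes, and the test was tried on simulated data. For a probe at background throughout a tissue, a bound was computed on the tissue means as stated in the text. Such a bound allows for the background and not for the spread between arrays, so the true fold may be smaller. Single arrays can move such a bound. Groups came from the labels, and replicates are separate mice. The labels give both tissues the mouse numbers 1, 2 and 4, and a shared number was taken to mean the same animal, which no other source used here states. Deviations from the tissue means correlated at 0.02, 0.01 and -0.01 within mice and at -0.07 to 0.04 between mice. The number of arrays limits the precision.

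The genes named are all 9 members, the genes with the largest and the smallest difference among those called in each pathway list, *Tgm1*, *Tgm3*, *Casp14*, selected cell type markers and the 3 genes nearest in profile to each called member, of which 1 is not reported here. The members and lists were chosen with earlier results of these data known. Alternatives were scanner intensities corrected by normexp with an offset of 16 or 50, scaling to the 75th percentile, the mouse as a block, a filter on dim probes, trended and robust variances in eBayes, the mean of a gene's probes and each array left out. Protein sequences were not used here. Array coordinates are mm9 and promoter coordinates GRCm38.p6.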

Additional observations from a re-analysis of the deposited data

How the results depend on the processing

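The calls rest on 3 arrays against 3. With an offset of 50, 1 of the 9 genes was called (*Crct1*), and with a trend and robust variances 2 were called. Leaving out each array in turn gave 1 to 5 genes. Fits that left out an array had fewer samples, and otherwise the cause was not tested. The other settings gave 4 to 6 genes. At the methods' threshold, with the p read as unadjusted, the count was 4 to 6 under every setting run. With the mouse as a block in a paired fit, 4 genes were called again, with an adjusted p of 0.0197 for *Lor*, 0.000475 for the first *Crct1* probe, 0.0393 for *Tchh* and 0.0359 for *Crnn*, and the block changed no call of a member probe. Called member probes kept their direction under all alternatives run. The adjusted p ranged from 0.000175 to 0.104 for *Lor*, from 0.00146 to 0.136 for *Tchh*, from 0.000664 to 0.102 for *Crnn*, from 6.3e-07 to 0.00236 for the first and from 0.000441 to 0.163 for the second *Crct1* probe. For *Rptn* it ranged from 0.0054 to 0.275. For *Ivl* it stayed at 0.497 or above for probe 1 and 0.42 or above for probe 2, with differences of -0.18 to 0.41 and -0.18 to 0.40. Scaling to the 75th percentile moved the median difference of all probes from 0.02 to 0.19.

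Crosslinking and scaffold genes higher in esophagus numbered 7 to 8 and small proline-rich genes 7 to 10 under all settings run. Late cornified envelope genes higher in esophagus numbered 8 and came to 4 with an offset of 50, 16 with 75th percentile scaling, 13 with the dim probe filter, 1 with a trend and robust variances, and 4 to 18 with arrays left out. The 2 further locus genes higher in esophagus came to 0, 4, 4 and 1 under the same settings in that order, and to 0 to 5 with arrays left out. Regulators higher in esophagus ranged from 7 to 14 with arrays left out. The 1 regulator higher in stomach was lost (0) with an offset of 50, 75th percentile scaling or the mean of a gene's probes, and with arrays left out gave 0 to 1. The 2 small proline-rich genes higher in stomach came to 1 with an offset of 50, 75th percentile scaling or the replicate block, and 1 to 3 with arrays left out. For filaggrin processing, 1 gene was higher in stomach with the dim probe filter or the mean of a gene's probes, and 0 to 1 with arrays left out. The 6 genes of that list higher in esophagus came to 4 with an offset of 50 or with a trend and robust variances. They came to 7 with 75th percentile scaling and to 4 to 7 with arrays left out. The causes of these shifts were not tested.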
